A study of Mus musculus with 35 samples.

Results

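Cells driven towards pluripotency with the factor combination labelled OB were compared at day 14 with mouse embryonic stem cells (mESC), with mouse embryonic fibroblasts (MEF) as the other end of the scale. The members are the 3 OB day 14 libraries without BMP4 and the 2 reference libraries, 5 of the 35 RNA sequencing libraries of the series. Genes were kept where the deposited value was 10 or more in at least 2 of these 5 columns, which left 12555 of the 21350 genes of the table. The labels do not spell out what OB stands for; Oct4 (Pou5f1) and Kdm2b, a subunit of the Polycomb complex PRC1.1, are the proteins that the description of the series names. OB cells had been infected with their factors and grown in iCD1, a reprogramming medium, with no BMP4 added. Their libraries at day 1 (2 libraries) and day 6 (4 libraries) were used to follow the same genes. Libraries of the combinations labelled ODR and OA at day 14 (3 each, in iCD1 without BMP4) served as the comparison of factor combinations. The mESC and MEF samples are labelled with their cell type alone and have 1 library each, so differences from them are given as sizes with the range over the 3 OB libraries and carry no test. Nothing in the labels says that replicates came from separate cultures, so p-values of tests between OB days, or of OB against ODR, reflect variation among libraries that could be technical.

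Pluripotent cells are held by a network of transcription factors in which Oct4 and Sox2 bind DNA together and Nanog, Esrrb, Klf2 and Tfcp2l1 stabilise the naive state. Fibroblasts lack this network, and reprogramming asks cells to switch it on from silent chromatin while losing the mesenchymal programme. Kdm2b is a histone demethylase whose zinc finger binds unmethylated CpG dinucleotides and brings PRC1.1 to CpG islands, where it places ubiquitin on histone H2A.

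The promoters of the 4 stem cell markers are shown because these genes ended at different levels and differ in CpG content. Each sequence runs from 250 bases before to 50 bases after the RefSeq start on GRCm38.p6, the assembly also called mm10, and every CpG is in capitals. Nanog lies on the plus strand (chr6:122707239-122707538) and holds 4 CpG. Zfp42 lies on the minus strand (chr8:43306960-43307259) and holds 11. Sox2 lies on the plus strand (chr3:34649745-34650044) and holds 27. Lin28a lies on the minus strand (chr4:134018767-134019066) and holds 10.
Nanog: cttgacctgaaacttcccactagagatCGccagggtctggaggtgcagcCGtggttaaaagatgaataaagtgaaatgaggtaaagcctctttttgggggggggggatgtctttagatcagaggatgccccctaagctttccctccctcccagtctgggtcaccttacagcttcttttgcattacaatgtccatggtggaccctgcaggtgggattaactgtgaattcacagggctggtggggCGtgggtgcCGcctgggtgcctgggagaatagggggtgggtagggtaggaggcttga
Zfp42: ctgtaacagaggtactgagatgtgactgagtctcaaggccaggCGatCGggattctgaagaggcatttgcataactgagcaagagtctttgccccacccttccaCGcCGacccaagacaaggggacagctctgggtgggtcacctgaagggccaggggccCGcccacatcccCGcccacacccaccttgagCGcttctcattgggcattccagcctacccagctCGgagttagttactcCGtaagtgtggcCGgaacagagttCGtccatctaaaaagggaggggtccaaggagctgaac
Sox2: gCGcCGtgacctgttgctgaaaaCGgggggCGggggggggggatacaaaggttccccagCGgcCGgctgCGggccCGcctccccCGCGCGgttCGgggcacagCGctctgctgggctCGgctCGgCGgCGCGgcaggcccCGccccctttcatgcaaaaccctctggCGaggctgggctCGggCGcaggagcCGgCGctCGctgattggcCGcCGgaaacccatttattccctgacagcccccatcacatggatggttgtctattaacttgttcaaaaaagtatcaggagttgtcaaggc
Lin28a: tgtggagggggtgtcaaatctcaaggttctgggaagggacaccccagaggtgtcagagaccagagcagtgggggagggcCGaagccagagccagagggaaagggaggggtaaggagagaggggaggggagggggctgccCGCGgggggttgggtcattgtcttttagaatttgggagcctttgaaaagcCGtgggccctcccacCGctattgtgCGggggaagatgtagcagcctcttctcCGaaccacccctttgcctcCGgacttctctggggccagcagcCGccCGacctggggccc
Of all 32851 promoters of this length in the reference, 68.6% hold as many CpG as Nanog or more, 41.4% as many as Zfp42, 15.5% as many as Sox2 and 43.5% as many as Lin28a. CpG reads the same on both strands, and these counts describe the letters alone.

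The values are normalized tag counts rounded to whole numbers. The distribution of values is almost equal from column to column, with totals between 4255921 and 4398785 and a ceiling of 18690 that 9 or 10 genes reached in each of the 5 columns. The depth of sequencing is unknown from such values. Values were compared as log2(value + 1), so differences of low genes are understated. Across genes, the OB day 14 libraries correlated with each other at Pearson 0.959 to 0.975, with MEF at 0.727 to 0.755 and with mESC at 0.673 to 0.692, and mESC with MEF at 0.645. Genes are not independent replicates and the columns share their distribution, so these are descriptions. The median range of a gene over the 3 OB libraries was 0.37 log2 units, and 1292 genes (10.3%) ranged over more than 1 unit. Replicate 1 was the farthest library in 716 of these, replicate 3 in 353 and replicate 2 in 223. In bulk samples, fewer cells expressing a gene and less RNA per cell cannot be told apart.

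OB cells at day 14 did not carry the stem cell marker set as a whole. Nanog, the homeobox factor of the naive state, stood at 6, 4 and 5 in the 3 OB libraries, against 2802 in mESC and 4 in MEF. Zfp42 (Rex1), a zinc finger protein of naive cells, stood at 2, 0 and 1, against 912 in mESC and 0 in MEF. Both remained at the fibroblast level. Sox2, the partner of Oct4, stood at 302, 274 and 292, against 1508 in mESC and 0 in MEF, which is a median difference of -2.36 log2 units from mESC with a range of 0.14 over the OB libraries. Lin28a, an RNA-binding protein that blocks maturation of let-7 microRNAs, stood at 632, 656 and 742, against 57 in mESC and 0 in MEF, a median 3.50 log2 units above mESC. The 4 stem cell markers therefore split into 2 silent genes, 1 partly raised gene and 1 gene above the stem cell library. Sox2 differed between OB and ODR at day 14 by 5.03 ± 0.73 (SE) log2 units (limma, adjusted p = 1.42e-05), with ODR at 6, 10 and 8. Lin28a differed by 9.40 ± 0.64 (adjusted p = 6.97e-09), and ODR was listed at 0 in all 3 libraries, so this size rests on the 1 added before the log. At day 6 Sox2 was at 4, 2, 4 and 3 and Lin28a at 2, 1, 1 and 0 in the OB libraries, and neither passed the test against day 1 (adjusted p = 0.397 and 0.334).

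**Figure D1:**
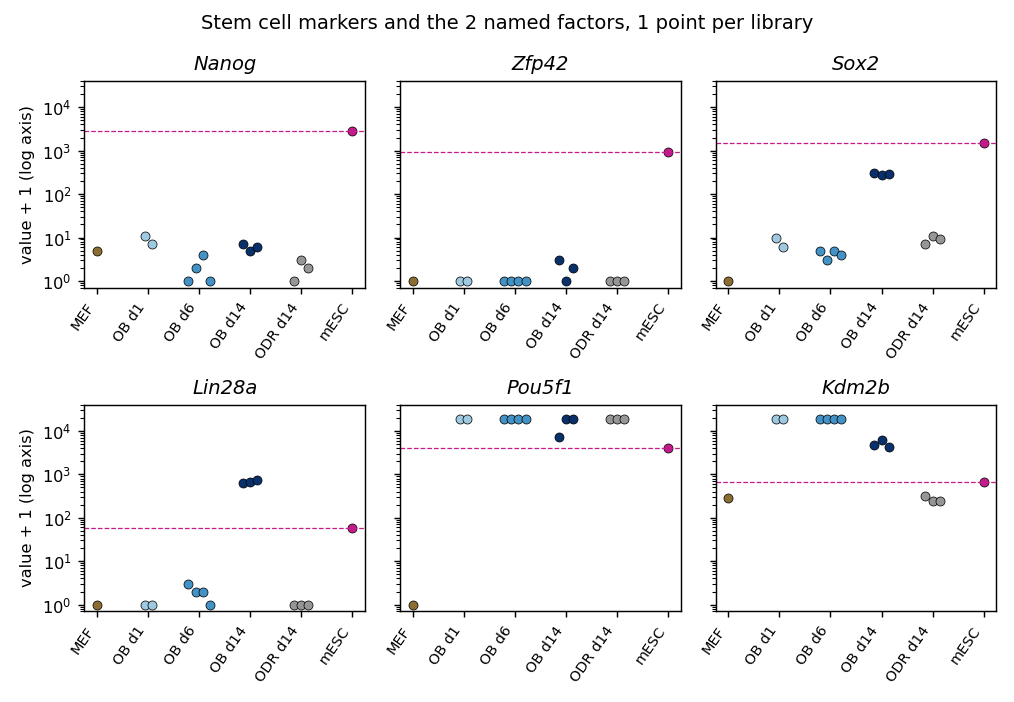
Values plus 1 on a log axis for the 4 stem cell markers and for Pou5f1 and Kdm2b, 1 point per library; the dashed line marks the mESC library. At day 14 the OB points of Nanog and Zfp42 lie with MEF, those of Sox2 at 274 to 302 lie under mESC, and those of Lin28a at 632 to 742 lie above it.

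The factors named by the study were both present. Pou5f1 was at 7086, 18690 and 18690 in OB day 14, against 3988 in mESC and 0 in MEF. The value 18690 is the ceiling of the table, so the difference from mESC was 0.83 log2 units in replicate 1 and at least 2.23 in the other 2. ODR and OA day 14 libraries were all at the ceiling for Pou5f1. Kdm2b was at 4626, 6246 and 4220, against 672 in mESC and 287 in MEF, and at 310, 236 and 240 in ODR day 14. It was 4.25 ± 0.23 log2 units higher in OB than in ODR (adjusted p = 1.10e-09). All OB libraries of days 1 and 6 stood at the ceiling for Kdm2b. The values do not separate delivered from endogenous transcripts.

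Stem cell genes were defined as those at least 3 log2 units (8-fold) higher in mESC than in MEF. There were 553 among the genes that pass the rule, and 1300 in the whole table. The difference between these numbers matters, because requiring 10 or more in 2 of 5 columns removes genes present in mESC alone, which are the ones that OB cells left off. Under the rule, 16 of 553 (2.89%) were silent, meaning under 10 in all 3 OB libraries and at least 1 log2 unit under mESC. Without that filter 726 of 1300 (55.8%) were silent, and 259 of these were listed at 0 in all 3 OB libraries. A further 313 genes were intermediate, with a value of 10 or more in at least 1 OB library and every library more than 1 unit under mESC. Of the rest, 88 (6.77% of 1300) were reached, with each OB library within 1 log2 unit (2-fold) of mESC, and 35 (2.69%) exceeded mESC by more than 1 unit in each library. Under the rule the corresponding counts were 313, 80 (14.5%) and 35 (6.33%). The libraries of the remaining 138 genes fell in more than 1 class. Among the 507 stem cell genes with an mESC value of 100 or more, 166 were silent, 255 intermediate, 47 reached and 7 above. As background, 50.8% of all 12555 genes were within 1 unit of mESC in all 3 OB libraries, 20.6% were higher and 12.3% lower. When genes present in any of the 5 columns were counted (13960 genes), 19.6% were higher and 16.7% lower.

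**Figure D2:**
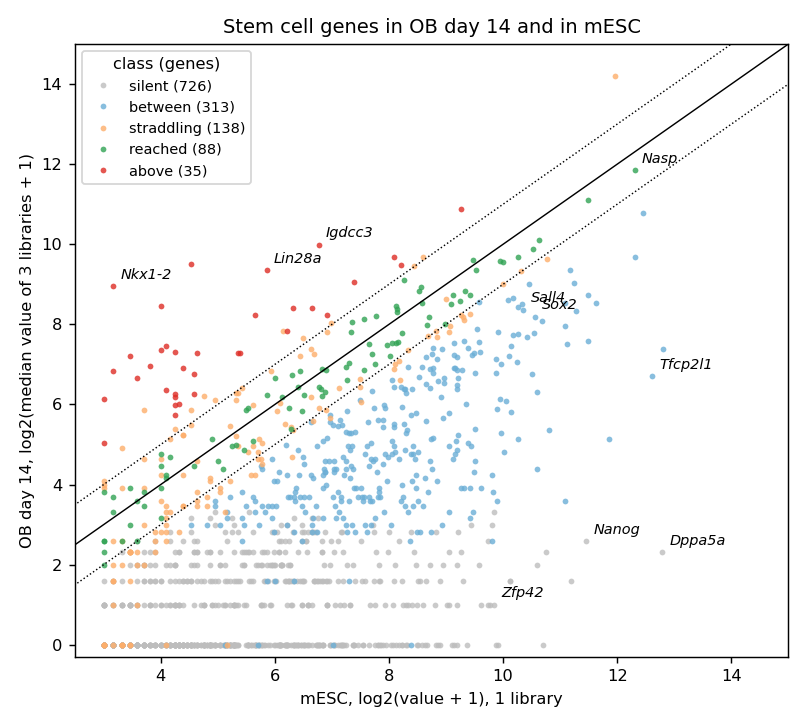
Each point is 1 of the 1300 stem cell genes of the whole table, with mESC on the x axis and the median of the 3 OB day 14 libraries on the y axis, both as log2(value + 1). The solid line is equality, the dotted lines are 1 log2 unit away, and most points (726 silent and 313 intermediate, marked as between) lie under the lower dotted line.

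Naive pluripotency genes lay far under the stem cell library. Of the 27 genes of that list, 25 were lower than mESC in all 3 OB libraries and none was within 1 unit or higher; 15 of the 27 were silent, beside 55.8% of all 1300 stem cell genes, and 3 were listed at 0 in all 3 libraries. The median difference from mESC was -6.52 log2 units, against 0.00 over all 13960 genes present in any column. Dppa5a, an RNA-binding protein of early embryos and the highest-valued silent gene named here, was at 4, 1 and 4 against 7086 in mESC. Esrrb, an orphan nuclear receptor, was at 7, 2 and 1 against 2345. Tdh, the threonine dehydrogenase that mouse stem cells use to feed one-carbon metabolism, was at 4, 5 and 2 against 1720. Fgf4, a growth factor that stem cells secrete, was at 2, 7 and 2 against 1114. In each of these 4 genes the OB libraries sat beside MEF, which was at 0 or 1.

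Further silent genes were signals and regulators of early embryos. Nodal, a ligand of the TGF-beta family, was at 1, 0 and 0 against 560 in mESC. Tdgf1 (Cripto), its co-receptor, was at 6, 0 and 1 against 871. Prdm14, a regulator of germ cell and naive identity, and Dppa4, a chromatin protein of early embryos, were listed at 0 in all 3 OB libraries, against 298 and 230 in mESC. Zfp296, a zinc finger protein of stem cells, was at 3, 2 and 2 against 474. Dppa3 (Stella), a maternal factor that guards DNA methylation, was at 1, 2 and 0 against 360, and Nr0b1 (Dax1) at 1, 6 and 3 against 356. The 3 OB libraries did not reach 10 for any of these 7 genes.

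Klf2, a Krüppel-like factor of the naive network, was at 9, 7 and 9, against 916 in mESC and 59 in MEF, so it lay under both references. It had been at 43 and 84 at day 1 and at 21, 28, 8 and 19 at day 6, and it fell between those days (-1.73 ± 0.47 log2 units, limma, adjusted p = 0.00832). Pecam1, an adhesion molecule of both endothelium and mouse stem cells, was at 5, 6 and 4 against 853 in mESC. Galnt6, a glycosyltransferase, was listed at 0 in all OB day 14 libraries against 958. Tex19.1, a germline and placental gene, was also listed at 0, against 476. Of 16 measured germline genes, 13 were lower than mESC in all 3 libraries and 3 varied. Of 5 measured two-cell-like genes, 3 were lower, 1 was higher and 1 varied. Zscan4c was listed at 0 against 63, and as the Zscan4 genes are near-identical copies, their separate values are uncertain. Silent genes lay on the X chromosome in 47 of 726 cases (6.47%), beside 6.16% of the 1299 stem cell genes with a position and 4.22% of all genes.

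Only 149 of the 726 silent genes had values high enough to be tested between OB days. Of these 149, 17 rose (11.4%) and 23 fell (15.4%) from OB day 1 to day 6, shares near those of all 13860 genes tested (16.7% and 17.1%). The median silent gene was listed at 0 in each library of OB, ODR and OA examined, and its course therefore cannot be followed.

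Some stem cell regulators were present at day 14 without reaching the mESC level. Sall4, a zinc finger repressor that works with Oct4, was at 346, 330 and 292, against 1310 in mESC and 0 in MEF. It had been listed at 0 at day 1 and stood at 58, 27, 55 and 32 at day 6, a rise of 5.39 ± 0.78 log2 units that rests on the added 1 (adjusted p = 4.81e-05). L1td1, an RNA-binding protein of pluripotent cells, was at 132, 152 and 96, against 1205 in mESC and 1 in MEF. Tfcp2l1, a naive-state factor, was at 95, 194 and 104, against 6244 in mESC and 11 in MEF. It had stood higher at day 6, at 583, 540, 550 and 350, after 17 and 7 at day 1 (rise of 5.37 ± 0.41, adjusted p = 4.63e-08). Tfcp2l1 at day 14 overlapped between OB and ODR (107, 115 and 106).

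Tet1, which oxidises methylcytosine, was at 298, 190 and 157, against 2886 in mESC and 58 in MEF, which is intermediate. It was 1 of 3 intermediate members among 11 DNA methylation genes, of which 5 were within 1 unit of mESC, 4 lower, 1 higher and 1 varied. Dnmt3b, a de novo methyltransferase, was at 168, 114 and 116, against 586 and 18. Mybl2, a regulator of cell division genes, was at 327, 320 and 217, against 2476 and 94. Trim71, a let-7 target and ubiquitin ligase, was at 278, 206 and 198, against 1363 and 44. All 4 were higher in OB than in ODR at day 14, by 2.48 ± 0.38 for Tet1, 3.57 ± 0.47 for Dnmt3b, 2.19 ± 0.21 for Mybl2 and 5.62 ± 0.61 for Trim71 (adjusted p = 2.49e-05, 5.32e-06, 1.52e-07 and 6.47e-07). Cdh1 (E-cadherin), the adhesion molecule of epithelia and stem cells, was at 66, 34 and 12, against 3698 in mESC and 4 in MEF. Its 3 OB libraries spanned 2.37 log2 units, the lowest being replicate 3.

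Epithelial genes mostly lay under mESC, either intermediate like Cdh1 (6 genes) or silent (7 genes). Of 23 measured members, 15 were lower than mESC in all 3 libraries, 7 varied between libraries and 1 was higher, and the list's median was -3.15 log2 units. Tjp3, a tight junction scaffold, was silent at 2, 3 and 1 against 146 in mESC. Epcam, an epithelial adhesion molecule, was at 50, 47 and 18 against 399, and Spint1, which blocks serine proteases on epithelial cells, at 32, 24 and 19 against 554. Krt8, a keratin of simple epithelia, was the 1 higher member, at 53, 32 and 18 against 5. Against ODR at day 14, 11 of 19 tested members were higher in OB and none was lower, beside 28.0% of all genes higher and 26.7% lower. The lowest value of each of Cdh1, Epcam, Spint1 and Krt8 was in replicate 3.

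The core pluripotency list was mixed. Of its 13 members, 9 were lower than mESC in all 3 libraries, 2 were within 1 unit, 1 was higher (Lin28a) and 1 varied (Pou5f1). Utf1, a chromatin factor of pluripotent cells, was silent at 8, 6 and 6 against 79, although OB day 6 libraries held 23, 24, 34 and 18. In the test against ODR at day 14, 8 of 11 tested members were higher in OB and none was lower, beside 28.0% and 26.7% of all genes. That test shares its OB libraries with the classes, so it is not independent of them.

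The reached genes with the highest mESC values included genes of chromatin and cell division. Nasp, a chaperone of histone H1 and H3, was at 5070, 3688 and 3316, against 5070 in mESC and 242 in MEF. Hmgb2, a DNA-bending protein of dividing cells, was at 2802, 2216 and 2066, against 2886 and 190. Jarid2, an accessory subunit of PRC2, was at 1134, 938 and 759, against 1476 and 122. Rcor2, a corepressor of Lsd1 found in stem cells and neural progenitors, was at 852, 773 and 641, against 711 and 57. Cenpf, a kinetochore protein, was at 913, 746 and 660, against 1022 and 126. None of Nasp, Hmgb2, Jarid2, Rcor2 and Cenpf passed the test between day 1 and day 6 (adjusted p from 0.0761 to 0.901). All 5 were higher in OB than in ODR at day 14, from 1.93 ± 0.25 log2 units for Cenpf to 4.66 ± 0.39 for Rcor2 (adjusted p = 4.10e-06 and 4.33e-08).

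Gldc, the glycine decarboxylase, was at 376, 383 and 400, against 606 in mESC and 5 in MEF. It rose from 69 and 71 at day 1 to 307, 196, 247 and 166 at day 6 (1.66 ± 0.39, adjusted p = 0.00354) and was 4.45 ± 0.37 higher than ODR at day 14 (adjusted p = 4.12e-08). Gcat, the enzyme that acts after Tdh on threonine, was at 263, 255 and 253 against 505 and 55, so the second step of that path was near the stem cell level while the first was silent. Sall1, a zinc finger factor of stem cells and kidney, was at 452, 425 and 407 against 682 and 3. Bex1, a small adaptor of neural cells, was at 837, 719 and 770 against 990 and 2, with ODR at 680, 708 and 630. Nefl, a neurofilament, and En2, a homeobox factor of the midbrain, were reached too, at 331, 559 and 547 against 307, and at 114, 85 and 84 against 109. The courses to that value differed, since Nefl stood at 2886 and 1636 at day 1 and En2 at 7 and 5.

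From day 1 to day 6, libraries that did not choose the class, 26 of 84 tested reached genes rose and 6 fell, beside 16.7% and 17.1% of all genes. The median difference from mESC was -2.54 and -2.41 in the day 1 libraries and between -1.95 and -1.58 at day 6. At day 14 it lay between -0.42 and -0.12, which the choice of the class fixes. Against ODR at day 14, 57 of the 84 were higher and 7 lower, beside 28.0% and 26.7% of all genes. That comparison shares the OB libraries with the choice of the class.

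The 35 genes above mESC included regulators of the embryo as well as genes of other kinds. Nkx1-2, a homeobox factor of the caudal epiblast, was at 496, 502 and 402, against 8 in mESC and 0 in MEF. Igdcc3, a let-7 target of the immunoglobulin family, was at 1408, 1016 and 994, against 108 and 0. Sox1, a factor of the early neural plate, was at 330, 542 and 352, against 15 and 0. Cdx4, a caudal homeobox factor, was at 112, 114 and 122, against 8 and 0. Sp5, a target of Wnt signalling, was at 232, 228 and 150, against 73 and 0. Mdk (midkine), a secreted growth factor, was at 1936, 1894 and 1749, against 614 and 38. Myo18b, an unconventional myosin, was at 332, 928 and 732, against 22 and 1. These 7 genes were higher than mESC in each of the 3 OB libraries, by a median of 1.62 (Mdk) to 5.79 (Nkx1-2) log2 units.

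They did not share a course or a restriction to OB. Sox1 was already at 816, 636, 644 and 514 at OB day 6, having risen by 3.04 ± 0.66 log2 units (adjusted p = 0.0018), and was at 575, 584 and 388 in ODR day 14. Pou3f1 (Oct6), a POU factor of the epiblast and neural progenitors, was at 66, 184 and 124 at day 14 after 514, 288, 429 and 228 at day 6, and at 250, 360 and 149 in ODR. In contrast, Nkx1-2 was at 10, 2, 1 and 0 at day 6 and listed at 0 in ODR day 14, a difference between OB and ODR of 8.86 ± 0.78 that rests on the added 1 (adjusted p = 7.13e-08). Igdcc3 was at 5, 3, 2 and 0 at day 6 and at 4, 1 and 4 in ODR day 14 (8.26 ± 0.73, adjusted p = 7.34e-08). The OA libraries held Nkx1-2 at 64, 3 and 5 and Igdcc3 at 174, 33 and 9. Of the 35 genes above mESC, 17 rose and 4 fell from day 1 to day 6, beside 16.7% and 17.1% of all genes.

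Caudal and primitive streak genes, which mark the growing tail end of the embryo, stood out by level. Of 18 measured members, 13 were higher than mESC in all 3 OB libraries, 3 were lower, 1 was within and 1 varied, with a median difference of 3.40 log2 units. Cdx2, a caudal and trophoblast homeobox factor, was at 170, 206 and 186 and listed at 0 in both references. T (Brachyury), the T-box factor of the streak, was at 59, 43 and 52, and Evx1, a homeobox factor of the streak, at 42, 17 and 30; both references were listed at 0 for each. Greb1, another gene of the list, was at 740, 726 and 650, against 3 in mESC and 16 in MEF. Cdx1, the third caudal factor, was at 66, 124 and 64 against 181 in mESC, so it did not exceed the stem cell library. Wnt3a, a ligand that maintains the tail bud, was at 1, 3 and 0 against 13. In all, 13 of the list's 28 genes were under 10 in all OB day 14 libraries, beside 8785 of all 21350 genes. Against ODR at day 14, 13 of 17 tested members were higher in OB and none lower, beside 28.0% and 26.7% of all genes. T differed by 5.70 ± 0.77 (adjusted p = 6.82e-06) and Cdx2 by 7.55 ± 0.56 (adjusted p = 1.43e-08), sizes that rest on the added 1 because ODR was listed at 0.

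**Figure D3:**
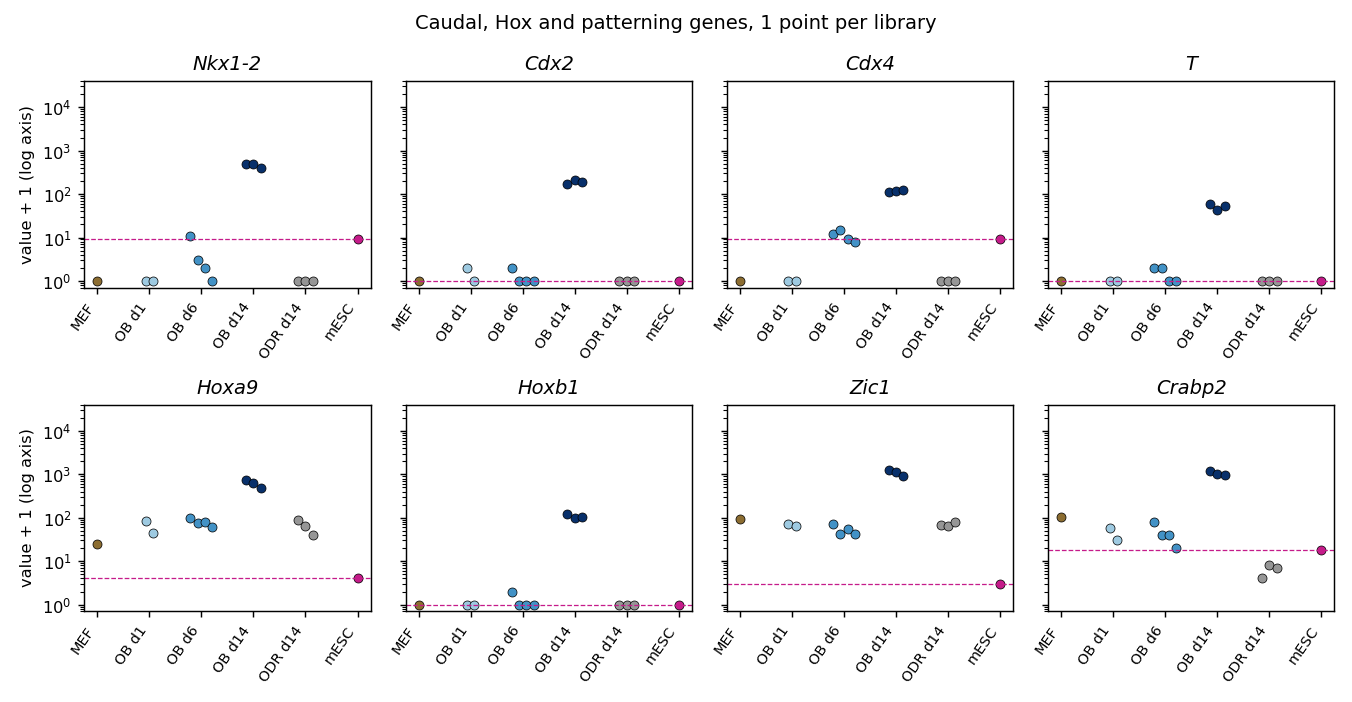
Values plus 1 on a log axis for 8 caudal, Hox and patterning genes, 1 point per library; the dashed line marks the mESC library. The 3 OB day 14 points lie above all other points shown in each panel, with T at 43 to 59 as the lowest.

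Hox genes, which set position along the body axis, had the highest median above mESC of the lists compared. Of 37 measured members, 33 were higher than mESC in all 3 OB libraries, 2 were lower, 1 was within and 1 varied. The median difference was 4.64 log2 units. Hoxa9, a posterior gene, was at 734, 640 and 482, against 3 in mESC and 24 in MEF. Hoxc10 was at 575, 388 and 402, against 9 and 77, and Hoxa10 at 472, 402 and 360, against 19 and 84. Hoxb1, an anterior gene, was at 120, 98 and 104 and listed at 0 in both references. Hoxb3 and Hoxb8 were high in MEF already (106 and 131) and in OB stood at 384, 288 and 274 and at 218, 188 and 182. The 2 lower members were Hoxc13 (2, 3 and 1 against 103) and Hoxb13 (1, 2 and 0 against 59), whereas their paralogue Hoxd13 was reached, at 15, 29 and 26 against 15. From day 1 to day 6, 9 of 37 tested Hox genes fell and none rose, beside 17.1% and 16.7% of all genes. Against ODR at day 14, 26 of 37 were higher and 2 lower, beside 28.0% and 26.7% of all genes. Hox genes overlap and have antisense partners, and the sources used here do not state whether counting used strand.

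Neural and retinoic acid genes were high alongside them. Of 28 measured neural genes, 22 were higher than mESC, 4 within, 1 lower and 1 varied. Of all 35 genes of that list, 8 were under 10 in all OB day 14 libraries, beside 8785 of all 21350 genes. Zic1, a zinc finger factor of the dorsal neural tube, was at 1230, 1106 and 922, against 2 in mESC and 91 in MEF. Insm1, a factor of neuroendocrine progenitors, was at 274, 417 and 234, against 1 and 0. Crabp2, which carries retinoic acid to the nucleus, was at 1170, 1000 and 988, against 17 and 103. Stra6, the retinol uptake receptor, was at 722, 734 and 450, against 4 and 2. Rarb, a receptor of retinoic acid, was at 163, 122 and 87, against 8 and 18. Of the 18 retinoic acid pathway genes, 10 were higher than mESC, 5 within and 3 varied. Crabp2 and Stra6 were at 3 to 7 in ODR day 14, and the differences were 7.43 ± 0.45 and 6.57 ± 0.52 (adjusted p = 2.59e-09 and 2.71e-08), whereas Rarb did not pass the test (0.10 ± 0.39, adjusted p = 0.852).

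Primed epiblast genes, which mark the state after implantation, also tended above mESC. Of 13 measured members, 8 were higher, 3 lower and 2 within, with a median of 1.94 log2 units. Lef1, the transcription factor of Wnt signalling, was at 494, 283 and 204, against 15 in mESC and 22 in MEF. Sox3, a relative of Sox1, was at 57, 105 and 72, against 18 and 0. The defining members Otx2 and Fgf5 were both listed at 0 in all 3 OB libraries. In mESC Otx2 was at 36 and Fgf5 was listed at 0. The oncofetal genes, most of them let-7 targets, were divided, with 4 of 13 higher, 4 within, 2 lower and 3 varied against mESC. All 13 were higher in OB than in ODR at day 14, beside 28.0% of all genes. Lin28b, the relative of Lin28a, was at 410, 304 and 340, against 106 in mESC and 29 in MEF. Igf2bp1, an RNA-binding let-7 target, was at 1196, 853 and 727 against 2804, and Hmga2, a chromatin protein, at 7091, 3012 and 2886 against 156, with MEF at 3320.

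In 222 genes (1.77% of 12555) the lowest OB library exceeded both references by at least 2 log2 units (4-fold) at a value of 50 or more. Both references were under 10 for 88 of these, and 15 were also stem cell genes. Myh1, a myosin heavy chain of skeletal muscle, was at 369, 948 and 562 and listed at 0 in both references. It had risen by 3.95 ± 0.46 log2 units from day 1 (27 and 15) to day 6 (358, 283, 348 and 318; adjusted p = 4.47e-06) and was at 826, 1002 and 1021 in ODR day 14. Of the 13 genes of the skeletal and cardiac muscle list, which does not hold Myh1, 10 were under 10 in all OB day 14 libraries and 6 were listed at 0 in all 3. Over all 21350 genes these counts were 8785 and 5138. Myh1 and its neighbour Myh2 (320, 368 and 114) are close copies, so how reads were shared between them is uncertain. The summed value of the muscle list was 440, 1126 and 829, against 1606 in mESC and 814 in MEF. Most of each reference sum came from 1 gene, Ttn at 1540 in mESC and Acta1 at 636 in MEF. In OB day 14, Ttn was at 18, 38 and 20 and Acta1 at 0, 0 and 1. Only 2 genes of the list passed the rule, Ttn, which was lower than mESC, and 1 that was higher. The OB sums therefore rest on few genes as well. The part of the list in the level of Myh1 was not tested. Nt5e (CD73), which makes adenosine, was at 704, 2012 and 1636, against 7 and 76, and was lower in OB than in ODR (9302, 18690 and 18690). Because 2 of the ODR libraries were at the ceiling, no size is given for that difference, which passed the test on the values as deposited (adjusted p = 1.01e-07). Ccl8, a chemokine, was at 90, 470 and 400, against 1 in each reference, with replicate 1 far lower.

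Imprinted genes contributed several of the highest values. Of 22 measured members, 13 were higher than mESC, 2 within, 2 lower and 5 varied, with a median of 2.36 log2 units. Mest, expressed from the paternal allele, was at 7092, 5617 and 6244, against 122 in mESC and 842 in MEF. Peg10, a retrotransposon-derived placental gene, was at 18690, 5616 and 4217, against 96 and 450, with replicate 1 at the ceiling. Nnat, a membrane proteolipid of neural tissue, was at 2882, 2282 and 2798, against 18 and 113. Igf2, a fetal growth factor, was at 5077, 3993 and 4217 against 816, but MEF held 6244. Xist, the RNA of X inactivation, was at 4632, 5090 and 5624, against 93 in mESC and 1300 in MEF, and at 5624, 9312 and 4224 in ODR day 14. The sex of the cells is not given in the labels.

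Members of the BMP and TGF-beta list differed among themselves, in cells grown without added BMP4. Id1, a direct target of BMP signalling, was at 807, 549 and 514, against 6 in mESC and 76 in MEF. Id2 was at 1001, 617 and 548, against 59 and 105. Msx1, a homeobox target, was at 606, 310 and 444, against 0 and 4. Bmp4 itself was at 396, 272 and 260, against 0 and 116. Of 20 measured members of the BMP and TGF-beta list, 11 were higher than mESC, 3 lower, 2 within and 4 varied, and the median of those passing the rule was -0.42 log2 units against MEF. The inhibitory Smad7 lay under both references, at 56, 24 and 28, against 436 and 420. Id1, Id2, Msx1 and Bmp4 were each higher in OB than in ODR at day 14, by 2.16 to 3.67 log2 units (adjusted p from 4.88e-06 to 0.0147). Over the list, however, 8 of 22 tested members were higher and 4 lower, beside 28.0% and 26.7% of all genes, with a median of 0.39. From day 1 to day 6, 10 of 22 tested members fell and none rose, beside 17.1% and 16.7% of all genes.

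The reverse class was smaller. In 61 genes (0.486%) the highest OB library lay at least 2 log2 units under both references, each at 50 or more. Lif, the cytokine that sustains mouse stem cells, was at 2, 4 and 6, against 220 in mESC and 152 in MEF, and was lower than in ODR (16, 23 and 27; -2.26 ± 0.43, adjusted p = 0.000255). Ass1, an enzyme of arginine synthesis, was at 38, 76 and 34, against 1848 and 846. Klf4, a Krüppel-like reprogramming factor, was at 26, 42 and 29, against 1214 and 434. Klf4 had been at 300 and 331 at day 1 and at 108, 68, 67 and 78 at day 6, a change of -1.99 ± 0.33 (adjusted p = 0.0002). Mcam, an adhesion molecule, was at 24, 28 and 41, against 648 and 756. Among 60 tested genes of this class, 29 fell and none rose from day 1 to day 6, beside 17.1% and 16.7% of all genes.

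Cd53 and Lyz2, markers of leukocytes, were in this class. Cd53, a leukocyte tetraspanin, was listed at 0 in all OB day 14 libraries, against 60 in mESC and 116 in MEF, and was at 53 and 48 at OB day 1. Lyz2, a lysozyme of macrophages, was at 1, 6 and 12, against 62 and 232, and at 376 and 385 at day 1. The summed value of the macrophage and leukocyte list was 12, 40 and 35 in OB day 14, against 789 in mESC and 465 in MEF. Most of the mESC sum came from 1 gene, Laptm5, at 552 in mESC and 35 in MEF. Of the list's 14 genes in the table, 12 were under 10 in all OB day 14 libraries and 5 were listed at 0. Over all 21350 genes these counts were 8785 and 5138. The part of such cells in the references was not tested.

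Most fibroblast genes had not come down to the mESC level. There were 1168 genes at least 3 log2 units higher in MEF than in mESC under the rule, and 1501 in the whole table. Of the 1168, 66 (5.65%) were no more than 1 unit above mESC in all 3 OB libraries, 480 (41.1%) were no more than 1 unit under MEF, 359 lay between and 263 had libraries in different classes. In the whole table, 223 (14.9%) of 1501 were at the mESC level and 498 (33.2%) at the MEF level. As used here, the first class includes genes under mESC and the second includes genes above MEF. In 101 of the 1168 genes each OB library exceeded MEF by more than 1 unit, and these are counted among the 480. Zic1, at 1230, 1106 and 922 against 91 in MEF, was among them. Taken as a share of the log2 distance from mESC up to MEF, the median fibroblast gene of the whole table stood at 63.4%, 67.0% and 66.7% in the OB day 14 libraries. It had stood at 80.9% and 78.6% at day 1.

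The genes brought to the stem cell level or under it included matrix genes. Lox, which crosslinks collagen, was at 120, 98 and 210, against 336 and 9312. Il1rl1, the receptor of interleukin 33, was at 1, 3 and 4, against 10 and 618. Pappa, a protease of IGF-binding proteins, was at 9, 14 and 33, against 57 and 1668. The OB medians of Lox, Il1rl1 and Pappa differed from mESC by -1.48, -1.46 and -1.95 log2 units, so they lay under the stem cell library. All 3 fell from day 1 to day 6, with Pappa changing least (-1.89 ± 0.48 log2 units, adjusted p = 0.00505) and Lox by -3.19 ± 0.23 (adjusted p = 2.27e-08). The adjusted p of Il1rl1, which went from 234 and 248 to between 9 and 21, was 2.03e-07. Of 150 tested genes at the mESC level, 83 fell and 1 rose in that interval, beside 17.1% and 16.7% of all genes.

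Collagen shows what the reference itself held. Col1a1 was at 2412, 2178 and 2536 in OB day 14, against 1936 in mESC and the ceiling of 18690 in MEF, so it counted as having come to the stem cell level at a high value. Col1a2 was at 2483, 3499 and 4632, against 1285 and 18690. Thy1, a fibroblast surface marker, was at 376, 436 and 560, against 59 and 2347, and Pdgfrb, a receptor of mesenchymal cells, at 721, 546 and 593, against 81 and 2175. The summed fibroblast matrix list was 43306, 63138 and 68507 in OB day 14, 32979 in mESC and 232616 in MEF. Of its 29 genes, 16 were higher than mESC in all OB libraries, 2 lower, 3 within and 8 varied. Whether fibroblasts were among the cells of the mESC sample is not stated in the labels, and the part of these values in the fibroblast classes was not tested.

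Against MEF, the fibroblast lists lay lower, with medians of -1.58 log2 units for identity and contractility genes (7 of 33 at the MEF level) and -2.42 for matrix genes (4 of 29). Members at the MEF level or above it are given first. Twist1, a factor of mesenchymal cells, was at 857, 752 and 760, against 6 in mESC and 316 in MEF. Vim (vimentin) was at 5084, 7097 and 9308, against 832 and 7097, and Col6a3 at 1938, 2540 and 2888, against 223 and 3496. Cdh2 (N-cadherin), a gene of the primed epiblast list, was also at the MEF level, at 1776, 1690 and 1348, against 62 and 1062. Twist1 did not differ from ODR beyond the spread (-0.01 ± 0.16, adjusted p = 0.971). Among contractile genes, Acta2 was at 199, 306 and 411, against 43 in mESC and 18690 in MEF, and Tagln at 58, 94 and 170, against 25 and 5072. Both fell from day 1 to day 6: Acta2 by -4.26 ± 0.60 log2 units, with 1 day 1 library at the ceiling, and Tagln by -3.89 ± 0.53 (adjusted p = 3.81e-05 and 2.37e-05). Of the 33 identity and contractility genes, 26 were higher than mESC, 2 lower, 2 within and 3 varied.

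Proliferation genes were at the stem cell level. Of 30 cell cycle genes, 24 were within 1 unit of mESC in all 3 libraries, 2 higher, 1 lower and 3 varied, with a median of -0.36. Against ODR at day 14, 26 of 30 were higher in OB and 1 lower, beside 28.0% and 26.7% of all genes. Over all 13960 genes present in any column, 6572 were within, 2731 higher, 2338 lower and 2319 varied, and the lists that follow stand beside these counts. The 22 glycolysis genes had 8 within, 5 higher, 2 lower and 7 varied, and the 15 one-carbon genes 9 within, 4 lower, 2 varied and none higher. Slc2a3 (Glut3), a glucose transporter of stem cells, was at 1850, 1749 and 1556, against 5617 in mESC and 49 in MEF. The 10 PRC1.1 subunits had 4 within, 2 higher, 2 lower and 2 varied, and the 21 PRC2 and canonical PRC1 genes 9 within, 3 higher, 6 lower and 3 varied. The p53 and Ink4 list had 6 of 20 lower, 5 within, 1 higher and 8 varied, and the interferon list 12 of 23 within, 3 higher, 3 lower and 5 varied. Interferon response genes nonetheless moved in both tests. Of 26 tested members, 14 rose from day 1 to day 6 and none fell, beside 16.7% and 17.1% of all genes. In OB, 21 were lower than in ODR at day 14 and none higher, beside 26.7% and 28.0%.

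Lists of other cell types were counted too. Measured members are those at 10 or more in at least 1 of the 5 columns, so a gene high in OB alone enters through OB. Of all listed genes, 10 of 21 endoderm, 10 of 19 trophoblast and surface ectoderm and 7 of 17 mesoderm genes were under 10 in all OB day 14 libraries. The same held for 5 of 15 chondrocyte and osteoblast and 4 of 13 endothelial genes. Over the whole table, 8785 of 21350 genes were under 10 in this way. Of all 13960 measured genes, 2731 were higher than mESC and 2338 lower. Of 13 measured endoderm genes, 7 were higher than mESC, 1 lower, 2 within and 3 varied. Of 11 trophoblast and surface ectoderm genes, 6 were higher, 3 lower and 2 within. Of 14 paraxial and lateral mesoderm genes, 6 were higher, 2 within and 6 varied. Of 11 chondrocyte and osteoblast genes, 7 were higher, 2 lower, 1 within and 1 varied. Endothelial genes had 4 higher, 4 lower, 2 within and 2 varied of 12. Adipocyte genes had 6 of 8 and keratinocyte genes 8 of 11 members under 10 in all OB day 14 libraries. Gata4, a factor of primitive endoderm, was listed at 0 in OB, against 25 in mESC.

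**Figure D4:**
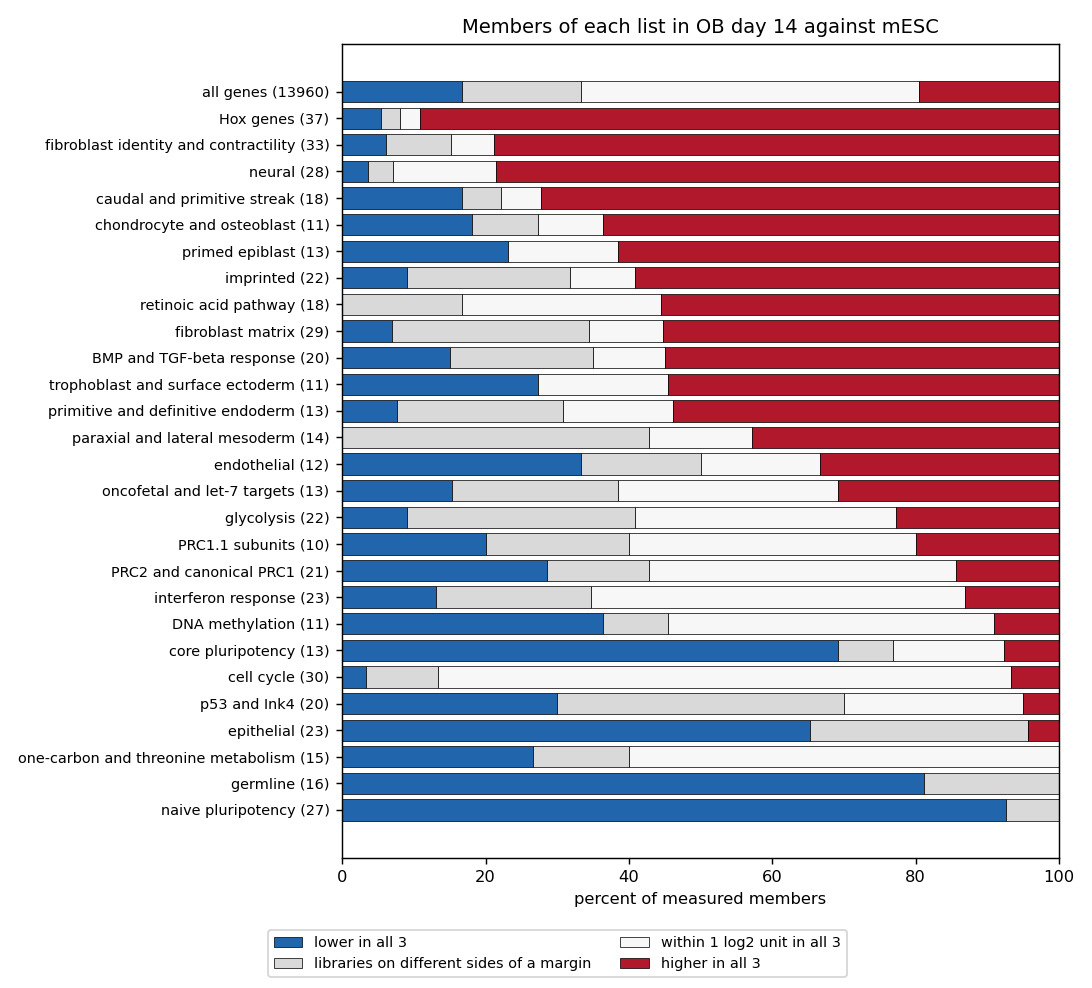
Share of the measured members of each list (number in parentheses, present at 10 or more in at least 1 of the 5 columns; lists with at least 10) that were lower, within, higher or varied between libraries, OB day 14 against mESC. Hox genes have 33 of 37 members higher and naive pluripotency genes 25 of 27 lower, and the top bar gives all 13960 genes.

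Set on the scale from MEF to mESC, stem cell genes had moved only part of the way. For the 553 genes of the rule, the median position was 60.0%, 59.9% and 55.4% of the log2 distance in the OB day 14 libraries. This set was filtered on OB libraries and favours them. Over all 1300 stem cell genes the positions were 23.1%, 24.4% and 17.9%. OB day 1 libraries stood at 0.0% in both, and OB day 6 libraries at 10.4%, 3.3%, 0.0% and 0.0%. ODR day 14 libraries stood at 0.0% in all 3, and OA day 14 libraries at 14.2%, 12.4% and 3.23%. The OB day 14 libraries did not overlap with those of ODR or OA, and this difference in medians was not tested.

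Counted in the same way, ODR day 14 had 826 silent, 298 intermediate, 63 reached and 35 above among the 1300 genes. OA day 14 had 716 silent, 344 intermediate, 34 reached and 22 above. Fibroblast genes at the MEF level numbered 673 in ODR, 525 in OA and 498 in OB. Genes above both references numbered 447 in ODR and 260 in OA, against 222 in OB. All 3 combinations were compared with the same mESC and MEF libraries, so these counts share their references, and differences between them were not tested.

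**Figure D5:**
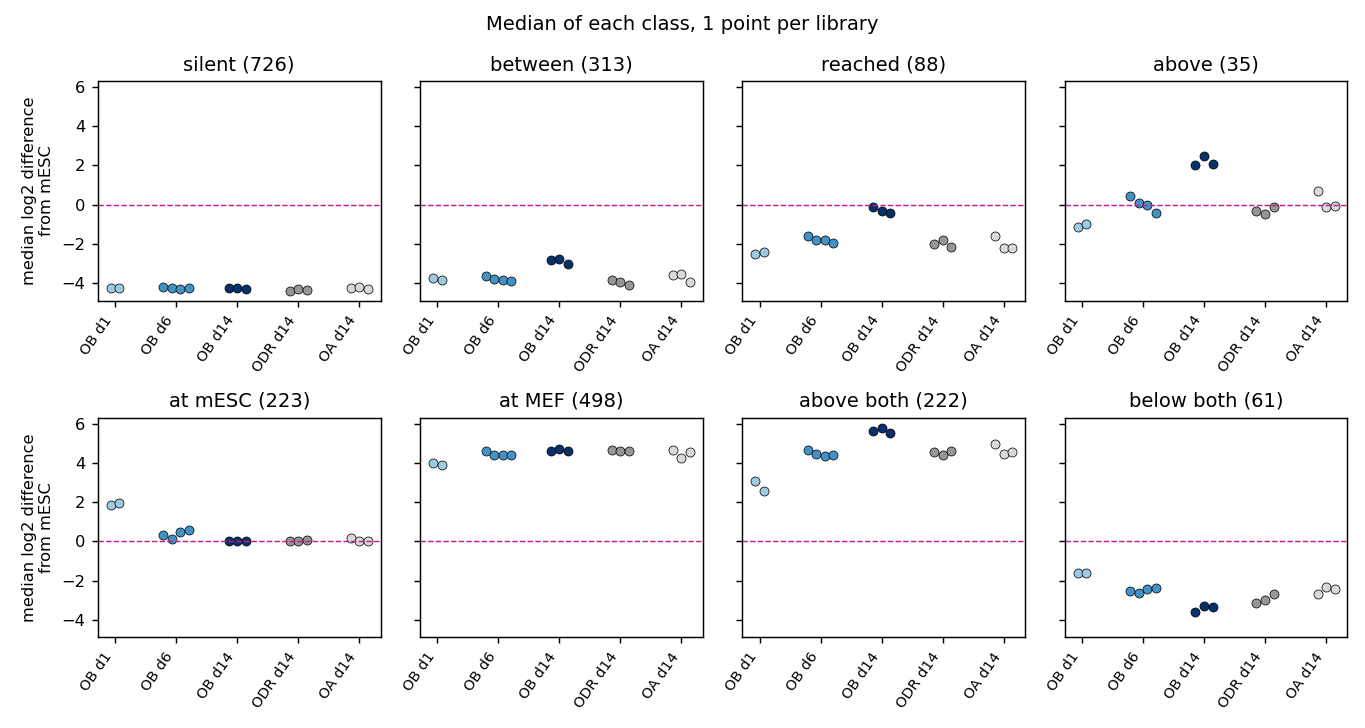
Median log2 difference from mESC (dashed line at 0) of each class of the whole table, 1 point per library, with the number of genes in parentheses. The classes were chosen on the OB day 14 libraries, which fixes their positions there; at OB day 6 the reached class lies between -1.95 and -1.58, and the silent class is at its floor in all libraries.

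The classes have thresholds, and genes next to them differ little. Gcat, at 263, 255 and 253 against 505, was just inside the reached class, and Celsr1, at 226, 310 and 218 against 452, just outside. Sp5 was just inside the class above mESC, and Neurod4, at 82, 73 and 52 against 26, just outside. Klf2, at 9, 7 and 9, was just inside the silent class, and Nr5a2, at 10, 10 and 10 against 386, just outside.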

How the data were processed

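Poly-A messenger RNA was sequenced, per the labels' protocols. The submitters' processing notes name RSEM, Bowtie2 2.2.5, bcl2fastq and the build mm10. The deposited values are a normalized tag count score rounded to whole numbers by the authors, in 1 table of 21350 genes and 35 columns, and how they were normalized is not given here. They are not read counts, so no count test was run and depth is unknown. There were 2 pairs of identical columns, neither among the 5 columns compared with the references.

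Classes were computed on log2(value + 1) with Python 3.11.15 and pandas 2.3.3. OB day 6 against OB day 1 and OB day 14 against ODR day 14 were tested two-sided with limma 3.58.1 in R 4.3.3 over 27 libraries in 11 groups (16 residual degrees of freedom, no trend, no block). Columns with identical values under different labels did not enter the fit, and 13860 genes at 10 or more in at least 2 libraries were tested, called at a Benjamini-Hochberg adjusted p below 0.05. The script was tested on simulated data. Alternatives changed the filter, pseudocount, margin, reference ratio, libraries and fit.

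Members, lists and classes were chosen with earlier results of these data known. The text draws the genes it names from a rule: the 6 fixed genes, the fixed fibroblast markers, the 12 largest differences of each class at 100 or more (for reached genes, the highest mESC values) and up to 4 genes per list and class, without predicted genes. The same rule was applied to the intermediate genes after values were seen. Genes outside it, namely T, Hoxb1, Evx1, Cdx1, Prdm14, Nr0b1, Dppa3, Dppa4, Epcam, Krt8, Utf1, Lin28b, Igf2bp1, Acta2, Tagln, Igf2, Xist and Mdk, were chosen after their values were seen. Gene names and positions are those of the table and of GENCODE M21. Promoters were matched by symbol, older symbol or identifier for 575 of 726 silent, 68 of 88 reached and 25 of 35 higher genes. As fewer than 80% had one, a comparison of CpG content between classes is void and is not given. Some genes of these lists are not reported here.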

Additional observations from a re-analysis of the deposited data

Results flagged for a closer look

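The median log2 difference from mESC of the 498 fibroblast genes at the MEF level was 4.58 in OB day 6 replicate 1 and 4.39 in the other 3 OB day 6 libraries. The gap of replicate 1 to the nearest other library was the whole range of the group (ratio 1.0), since the other 3 medians tie. With 4 libraries in a group, chance marks about 1 group in 20 this way.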

How the results depend on the processing

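The counts of classes moved with their definitions. Of the 16 silent stem cell genes under the rule, the count became 726 with no filter, 643 with 10 or more in at least 1 column, 8 with a pseudocount of 10, 31 with a reference ratio of 2 log2 units, and 29 to 43 when a library was left out (43 without replicate 1, 39 without replicate 2, 29 without replicate 3); the filter and the smaller number of libraries are what change it by construction. Reached genes (80) became 38 with a pseudocount of 10, 21 with a margin of 0.5 and 268 with a ratio of 2. Genes above mESC (35) became 5 and 72 under that pseudocount and ratio. Fibroblast genes at the mESC level (66) became 223 with no filter, 187 with 1 column, 37 with the narrower margin and 212 with the lower ratio, and those at the MEF level (480) became 193 with a pseudocount of 10 and 863 with a ratio of 2. Genes under both references (61) became 39 with a pseudocount of 10. The cause of these changes beyond the definitions was not tested. Of 101 named genes, 63 moved with a pseudocount of 10 by more than the standard deviation of the 3 OB day 14 libraries. A pseudocount cannot change the sign of these differences. Leaving out 1 of 3 libraries cannot move a median beyond that standard deviation, so this rule says nothing about single libraries. OB day 6 against day 1 called 4679 genes, and 2762 to 4379 with a library left out; the lowest was without OB day 1 replicate 2, which leaves 1 day 1 library assumed to vary like the other groups. With the replicate block 4506 genes were called there and 7802, against 7583, in OB against ODR at day 14. Same-numbered day 14 libraries deviated together by 0.156, 0.087 and 0.168, each best with its own number, which is a hint and not a design. Leaving out an OA day 14 library, chosen after seeing the data because its Kdm2a is 721 against 18690 in the other 2, gave 5397 and 8167 calls. Depth is unknown, and genes under 10 cannot be ordered.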
